A study of Mus musculus with 12 samples.

Results

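The clustered protocadherins are cell-surface proteins encoded by the Pcdha, Pcdhb and Pcdhg gene arrays. Their RNA was measured in thalamus of newborn mice, and the members were all protein-coding genes of the count files with a symbol that starts with Pcdha, Pcdhb or Pcdhg. This rule took 59 of 55359 genes, with 15 in the alpha cluster, 22 in the beta cluster and 22 in the gamma cluster. The 12 bulk poly-A libraries came from the ventroposterior medial nucleus, the thalamic relay for touch on the face, at postnatal day 0. The 4 embWPC ALBSF libraries came from the upper lip territory (ALBSF) of pups given the treatment that the labels call embWPC and do not spell out. The 4 Ctrl PMBSF libraries came from the whisker pad territory (PMBSF) of control pups, and the 4 Ctrl ALBSF libraries from the upper lip territory of control pups. Strain, sex and genotype were not given in the sources used here. Every library pooled the tissue of 5 brains, so the p-values below measure the spread between pools.

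Each clustered protocadherin is a cadherin-like adhesion molecule that binds the same isoform on a facing membrane, and neurons use the mix of isoforms they express to tell their own branches from those of other cells. In the alpha and gamma clusters a variable exon with its own promoter is spliced to constant exons that the whole cluster shares, whereas most beta genes are a single exon. Most variable exons are switched on in a random subset of promoters in each neuron, through DNA looping by CTCF and cohesin, while the C-type isoforms (Pcdhac1, Pcdhac2, Pcdhgc3, Pcdhgc4 and Pcdhgc5) are expressed more broadly. The 3 questions the groups allow are how the 2 territories of control pups differ, and how the embWPC upper lip territory differs from each of them.

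The depth of a library was 31712820 to 33702453 counts in embWPC ALBSF, 31921767 to 34512840 counts in Ctrl PMBSF and 28457046 to 31850727 counts in Ctrl ALBSF. The 59 members together took 9718 to 14043 counts of a library, or 0.0306 to 0.0417% of its total. Markers of thalamic relay neurons summed to 2457 to 2951 CPM in embWPC ALBSF, 2239 to 2538 CPM in Ctrl PMBSF and 2472 to 2995 CPM in Ctrl ALBSF, and none of the 12 markers was at 0. Levels are given as CPM, the counts relative to the library total after TMM scaling. Ctrl PMBSF 2 stood apart in its markers of meningeal fibroblasts, which summed to 169 CPM against 41.8 to 70.6 CPM in the other 11 libraries. Ctrl ALBSF 2 stood apart in its markers of choroid plexus and ependyma, with 111 CPM against 10.8 to 32.1 CPM in the other 11. In the fits without 1 of these 2 libraries 0 members were called in the comparisons that use it, as in the fit of all 12. A fit of the control libraries without both, with the replicate number as a block, called 1 of 54 members, beside 3.15% of all genes. This was Pcdhgc4, described below, with an adjusted p of 0.0358 by edgeR.

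All members lay on the plus strand of chromosome 18 of GRCm39. The alpha genes other than Pcdha4b spanned 37063237 to 37320716, the beta genes 37397991 to 37657532 and the gamma genes 37794846 to 37975014. The annotation gives Pcdha4b as a read-through gene that starts in the alpha cluster and ends at 37973253, inside the gamma cluster. No alpha or gamma member had all of its exon bases to itself: the share that no other gene covers was 0 to 52.3% for alpha (median 46.3%) and 0 to 67.8% for gamma (median 53.9%). In the beta cluster 19 of 22 members shared no exon base. Another gene overlapped the variable exon of 6 alpha and 10 gamma members and the first exon of 3 beta members. A read in a constant exon cannot be assigned to 1 member, and how such reads were counted is not given in the sources used here.

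Of the 59 members 54 passed the filter on low counts, 12 alpha, 21 beta and 21 gamma, and 5 did not. Of these, 4 were genes whose variable exon is covered by another annotated gene. Pcdha4b, with 0 of its 2410 bases of variable exon unshared, had 0 counts in all 12 libraries. Pcdha4, which lies under it and has 3 of 2503 bases unshared, had 1 to 9 counts. Pcdha11 had 54 of 2569 bases unshared beside the antisense RNA Gm10545 and counted 3 to 22 reads. Pcdhga10 had 0 of 2634 bases unshared beneath the antisense RNA Gm26672, which itself had 23 to 51 counts, and Pcdhga10 had 0 to 4. Pcdha4 and Pcdha4b lie on the same strand, so a read in their common bases fits both under any strand setting. For Pcdha11 and Pcdhga10, whose overlapping genes are antisense, it depends on whether the counting used strand, which is not given. The low counts of these 4 genes therefore cannot be read as low expression.

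Pcdhb1 was the exception. All 2588 of its exon bases were unshared, and it had 2 counts in embWPC ALBSF 4 and 0 counts in the other 11 libraries. The other 21 beta members all passed the filter.

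**Figure D1:**
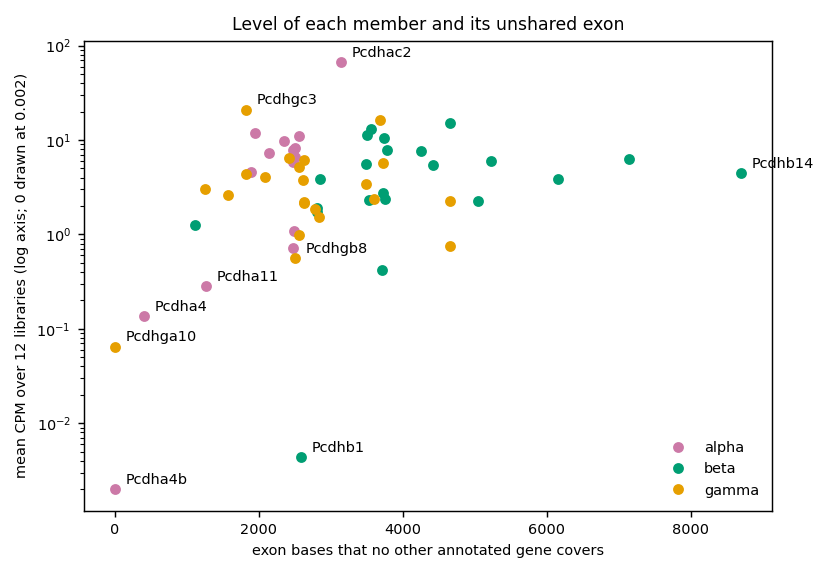
Mean CPM over the 12 libraries (vertical, log axis, 0 drawn at 0.002) of the 59 members against their exon bases that no other annotated gene covers (horizontal), with colours for the clusters. Pcdha4b, Pcdhga10, Pcdha4 and Pcdha11 are low and have few unshared bases, and Pcdhb1 is low with 2588 of them.

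Pcdhac2 was the most abundant member in every group. It had 71.4, 81.4, 72.4 and 68.1 CPM in embWPC ALBSF, 53.7, 78.1, 63.3 and 61.6 CPM in Ctrl PMBSF, and 69.2, 61.3, 65.0 and 58.9 CPM in Ctrl ALBSF. The highest value in each control group stood above the lowest value in embWPC ALBSF, so the groups overlapped. Pcdhac2 is the C-type alpha isoform known for keeping serotonergic axons apart as they fill their target regions. It took 48.7 ± 1.53% of the alpha counts in embWPC ALBSF, 45.4 ± 3.53% in Ctrl PMBSF and 46.5 ± 0.439% in Ctrl ALBSF (SD, n = 4 each). Counted per kilobase of unshared exon, its share was 41.0% in embWPC ALBSF, 37.8% in Ctrl PMBSF and 38.8% in Ctrl ALBSF, so it led the cluster on both scales.

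The next levels belonged to gamma C-types. Pcdhgc3 is an isoform that binds the Wnt pathway scaffold Axin1 and promotes dendrite branching in cortex. It averaged 21.1 CPM over the 12 libraries, or 11.6 CPM per unshared kilobase. The latter value rests on 1821 bases that no gene on either strand covers, against 3381 on its own strand. Counting by strand would make it lower, and whether strand was used is not given. The ranks below have the same limit. Pcdhgc4, the gamma isoform that mouse interneurons need to survive, averaged 16.3 CPM, or 4.41 per unshared kilobase. The third gamma C-type, Pcdhgc5, known in mouse brain for its late postnatal onset, stood at the other end with 0.752 CPM, or 0.161 per unshared kilobase. Pcdhac1, the other alpha C-type, averaged 10.99 CPM and 4.30 per unshared kilobase. The C-types thus held ranks 1, 2, 4 and 5 per unshared kilobase, and rank 54 of 56, among the members with at least 1 unshared kilobase.

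Among the alternate alpha isoforms Pcdha12 was highest, with 11.98 CPM or 6.16 per unshared kilobase, followed by Pcdha5 with 9.76 CPM. Pcdha8 was the lowest tested alpha member with 0.722 CPM. The most abundant beta members were Pcdhb17 with 15.1 CPM, Pcdhb20 with 13.0, Pcdhb7 with 11.4 and Pcdhb9 with 10.5, and the lowest tested one was Pcdhb13 with 0.425 CPM. In the gamma cluster the alternate isoforms were led by Pcdhgb6 with 6.41 CPM and Pcdhga2 with 6.14 CPM, and the lowest tested member was Pcdhgb8 with 0.560 CPM. The tested members spread over 92.9-fold in the alpha cluster, 35.6-fold in the beta cluster and 37.6-fold in the gamma cluster.

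**Figure D2:**
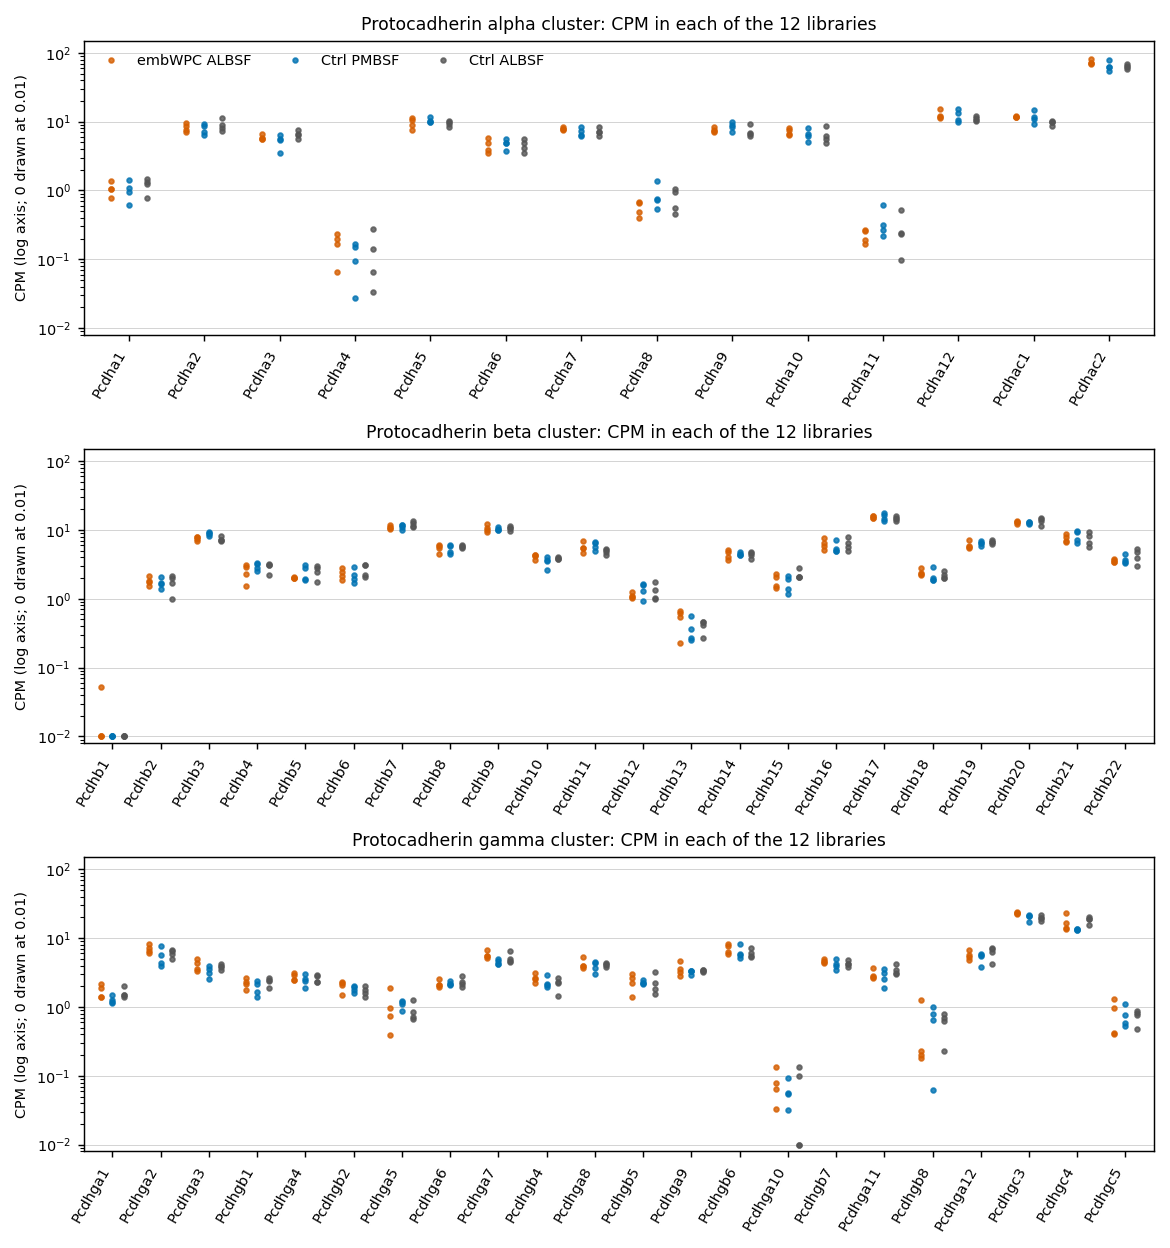
CPM (vertical, log axis, 0 drawn at 0.01) of 58 members in their order along each cluster (horizontal), one point per library, with 4 libraries per group. Pcdha4b is left out because it had no count. The order of the members is alike in the 3 groups, with Pcdhac2 highest in every library.

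By raw counts, the beta cluster was spread most evenly over its genes. The counts were not scaled to unshared exon length. The alpha and gamma numbers below include Pcdha4, Pcdha4b, Pcdha11 and Pcdhga10, whose low counts cannot be read as low expression. The effective number of members, the number of equally abundant genes with the same Shannon diversity, was 16.2 ± 0.339 of 22 in embWPC ALBSF, 16.1 ± 0.103 in Ctrl PMBSF and 16.3 ± 0.480 in Ctrl ALBSF (SD, n = 4 each). The gamma cluster had 13.7 ± 0.279 of 22 in embWPC ALBSF, 14.2 ± 0.365 in Ctrl PMBSF and 13.9 ± 0.140 in Ctrl ALBSF. The alpha cluster, with Pcdhac2 near the sum of all its other members, had 6.32 ± 0.282 of 15 in embWPC ALBSF, 6.79 ± 0.486 in Ctrl PMBSF and 6.71 ± 0.0584 in Ctrl ALBSF. In each cluster the ranges of the groups overlapped, and the differences between groups were not tested.

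The profile over the 54 tested members was nearly the same in any 2 libraries. Spearman's rho across members was 0.940 to 0.982 between libraries of different groups (48 pairs, median 0.968) and 0.951 to 0.983 within a group (18 pairs, median 0.967). Members share length and cluster between libraries, so these values describe the order of levels and were not tested.

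Summed over its members, the alpha cluster had 143, 165, 148 and 146 CPM in embWPC ALBSF, 131, 159, 136 and 137 CPM in Ctrl PMBSF, and 147, 133, 140 and 127 CPM in Ctrl ALBSF. The beta cluster had 121, 109, 113 and 116 CPM in embWPC ALBSF, 116, 119, 119 and 111 CPM in Ctrl PMBSF, and 121, 123, 117 and 109 CPM in Ctrl ALBSF. The gamma cluster had 92.8, 119.7, 93.9 and 106 CPM in embWPC ALBSF, 83.0, 99.2, 85.1 and 89.3 CPM in Ctrl PMBSF, and 108, 100.3, 96.9 and 85.7 CPM in Ctrl ALBSF. The groups overlapped for every cluster in every comparison. The alpha total averaged 150.4 ± 9.61 CPM in embWPC ALBSF, 141 ± 12.2 CPM in Ctrl PMBSF and 137 ± 8.81 CPM in Ctrl ALBSF (SD, n = 4 each). The beta total averaged 115 ± 5.13 CPM in embWPC ALBSF, 116 ± 3.75 CPM in Ctrl PMBSF and 118 ± 6.16 CPM in Ctrl ALBSF, and the gamma total 103 ± 12.6 CPM in embWPC ALBSF, 89.2 ± 7.17 CPM in Ctrl PMBSF and 97.7 ± 9.30 CPM in Ctrl ALBSF. In bulk tissue, fewer cells that express an isoform and less of its RNA per cell cannot be told apart.

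Over all 12 libraries embWPC ALBSF 2 had the highest alpha total and the highest gamma total. In embWPC ALBSF 2 and 4 the markers of astrocytes and radial glia summed to 5618 and 5385 CPM, and in embWPC ALBSF 1 and 3 to 8585 and 10376 CPM. Libraries 2 and 4 were also the pair with the higher gamma totals. In Ctrl PMBSF 1, 2, 3 and 4 the glial markers summed to 6289, 7993, 6656 and 7540 CPM. Ranked by these sums, the Ctrl PMBSF libraries had the same order as by gamma total. In Ctrl ALBSF the glial sums were 7818, 8772, 11543 and 8871 CPM, and library 1 had the lowest glial sum and the highest gamma total. The part of the glial markers in the gamma totals was not tested.

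**Figure D3:**
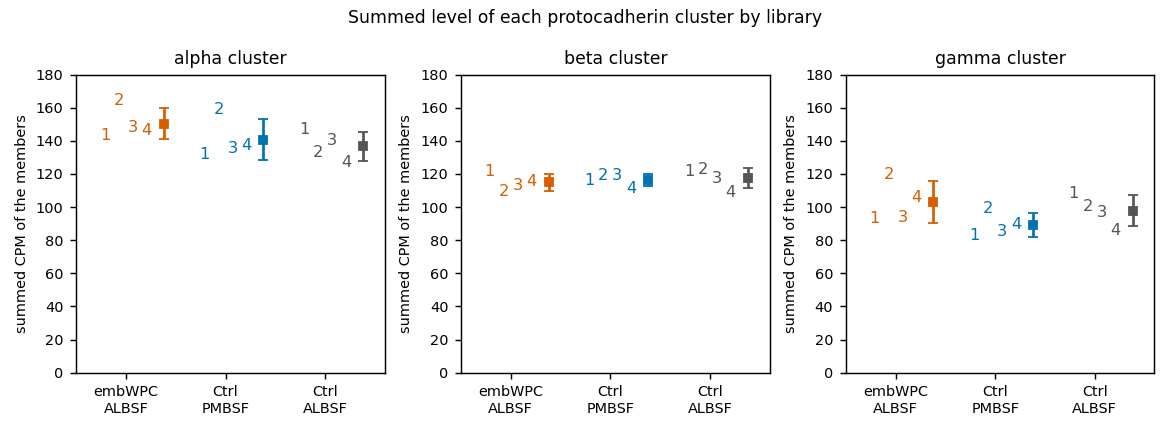
Summed CPM of the members of each cluster (vertical, from 0) by group. Digits mark the library with that replicate number, and squares with bars give the mean and SD of 4 libraries. The 3 groups overlap in every panel.

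As parts of all member counts, the clusters differed a little more clearly than their totals did. The alpha cluster held 39.8 to 41.8% of member counts in embWPC ALBSF, 39.8 to 42.1% in Ctrl PMBSF and 37.4 to 39.5% in Ctrl ALBSF, so that Ctrl ALBSF lay below the libraries of both other groups. The gamma cluster held 26.0 to 30.4% in embWPC ALBSF, 25.1 to 26.4% in Ctrl PMBSF and 26.7 to 28.7% in Ctrl ALBSF, and the 2 control groups did not overlap. The beta cluster held 27.8 to 34.0% in embWPC ALBSF, 31.6 to 35.1% in Ctrl PMBSF and 32.2 to 34.4% in Ctrl ALBSF, with overlap throughout. The 3 parts sum to the whole, and none of these differences was tested.

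No member passed the test between whisker pad and upper lip of control pups in the fit of all 12 libraries. By edgeR's quasi-likelihood test with Benjamini-Hochberg adjustment over 17501 genes, 0 of 54 members passed an adjusted p of 0.05, where 1.62% of all genes did. At an unadjusted p under 0.05 there were 3 members, against 11.8% of all genes. DESeq2 and limma-voom also called 0 members, where they called 3.05% and 2.53% of all genes. They had 4 and 6 members at an unadjusted p under 0.05. The share of all genes at that level was counted for edgeR only, here and below. The libraries of the groups did not overlap for 2 members, Pcdhb3 and Pcdhgc4, against 8.28% of all genes. The member log2 differences of Ctrl PMBSF over Ctrl ALBSF had a median of -0.03, beside 0.00 for all genes tested. Of the 54 members 23 lay above 0, beside 51% of all genes. Of 11 tested gamma A isoforms 1 did, Pcdhga5 with a log2 difference of 0.34. Members of the same libraries can move together, so counts of signs in any comparison are not independent observations.

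Pcdhgc4 was the member with the smallest p in that comparison. It had 13.2, 13.7, 13.1 and 13.7 CPM in Ctrl PMBSF against 20.4, 19.0, 19.2 and 15.8 CPM in Ctrl ALBSF, or 437 to 490 counts against 477 to 616 counts. Every whisker pad library was below every upper lip library. Its log2 difference was -0.47 ± 0.15 (SE, n = 4 per group), with an adjusted p of 0.163 by edgeR's quasi-likelihood test. As a part of the gamma counts it took 15.1 ± 0.934% in Ctrl PMBSF and 19.0 ± 0.576% in Ctrl ALBSF, again without overlap. The share of Pcdhgc3 went the other way, with 22.8% in Ctrl PMBSF and 20.1% in Ctrl ALBSF, also without overlap. Shares of 1 cluster sum to the whole, so they are linked.

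Pcdhgc4 alone passed the test once the replicate number was used. Control libraries with the same number deviated together across genes, and with that number as a block Pcdhgc4 fell by 0.46 ± 0.09 on the log2 scale in Ctrl PMBSF with an adjusted p of 0.00958 by edgeR, in a fit where 5.04% of genes were called. Within number 1, 2, 3 and 4 the log2 difference was -0.62, -0.48, -0.55 and -0.20. That all lay below 0 follows from the lack of overlap between the groups, under any pairing. A fit of the 8 control libraries without the block gave -0.47 and an adjusted p of 0.0324, with 1.35% of genes called. Over all alternatives run, the adjusted p of this difference ran from 0.00958 to 0.365, and without number 3 of both groups the blocked fit gave 0.0690.

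Markers of several cell types had log2 differences of mostly one sign in the same comparison. Of the tested markers of meningeal fibroblasts 14 of 15 had log2 differences above 0. The list summed to 41.8, 169, 70.6 and 63.4 CPM in Ctrl PMBSF, where library 2 stood apart, and to 51.4 to 61.5 CPM in Ctrl ALBSF. Of the markers of astrocytes and radial glia 2 of 10 were above 0, with sums of 6289 to 7993 CPM in Ctrl PMBSF and 7818 to 11543 CPM in Ctrl ALBSF. Of the oligodendrocyte markers 2 of 8 were above 0 and 1 was called lower, with sums of 349 to 379 CPM in Ctrl PMBSF and 394 to 512 CPM in Ctrl ALBSF. Of the microglia markers 0 of 9 were above 0. Their sums were 44.9 to 106 CPM in Ctrl PMBSF and 54.1 to 88.6 CPM in Ctrl ALBSF. Of the tested erythroid markers 0 of 6 were above 0. The erythroid sums were 744 to 1047 CPM in Ctrl PMBSF and 847 to 1332 CPM in Ctrl ALBSF. Of the 6 serotonergic markers 4 were tested, and all 4 were above 0. The 6 summed to 527 to 574 CPM in Ctrl PMBSF and 414 to 548 CPM in Ctrl ALBSF. Of the endothelial and mural markers 3 of 11 were above 0, with sums of 131 to 219 CPM in Ctrl PMBSF and 146 to 192 CPM in Ctrl ALBSF. Above 0 were also 1 of 5 tested choroid plexus and ependyma markers, 2 of 8 dividing cell markers and 4 of 10 tested prethalamic GABAergic markers. Bulk counts do not show which cells held these transcripts. Among the 12 thalamic relay neuron markers, whose sums are given above, 2 were called higher and 2 lower. No marker of these lists was at 0 in all libraries of a group. With the meningeal level as a covariate, the log2 difference of Pcdhgc4 was -0.51 with an adjusted p of 0.233, and the part of the other lists was not tested. Without Ctrl ALBSF 2 it was -0.46, with an adjusted p of 0.311 by edgeR.

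Pcdhb3, a beta isoform, had 9.35, 8.93, 8.17 and 8.70 CPM in Ctrl PMBSF against 8.14, 7.14, 6.95 and 7.24 CPM in Ctrl ALBSF. The lowest whisker pad library stood just above the highest upper lip library. The log2 difference was 0.25 ± 0.09 (SE), with an adjusted p of 0.273 by edgeR, and its part of the beta counts was 7.56% in Ctrl PMBSF and 6.27% in Ctrl ALBSF. Pcdhac1 had 9.37, 14.7, 10.8 and 11.6 CPM in Ctrl PMBSF against 10.1, 9.78, 9.82 and 8.76 CPM in Ctrl ALBSF, with a log2 difference of 0.27 ± 0.12 and an adjusted p of 0.372 by edgeR. The groups overlapped, and its highest value was in Ctrl PMBSF 2, the library with the high meningeal sum. The log2 difference of Pcdhac1 was 0.14 without that library and 0.032 with the meningeal level as a covariate. Pcdha3, Pcdhb11 and Pcdhga1 had log2 differences of -0.33, 0.29 and -0.34 in overlapping groups, and the other C-types Pcdhac2, Pcdhgc3 and Pcdhgc5 had 0.01, 0.05 and 0.02. Within the 4 control pairs of the same number, Pcdhb3 was 0.20 to 0.32 higher on the log2 scale in Ctrl PMBSF and Pcdhb11 0.09 to 0.58 higher. The pair differences were -0.67 to -0.23 for Pcdha3 and -0.76 to -0.01 for Pcdhga1. Each of these 4 members thus had one sign in 4 of 4 pairs, which for Pcdhb3 follows from the lack of overlap. With the block their adjusted p were 0.166 for Pcdhb3, 0.252 for Pcdhb11, 0.147 for Pcdha3 and 0.440 for Pcdhga1 by edgeR. Of the 54 members 15 had one sign in 4 of 4 pairs, beside 27.1% of all genes.

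**Figure D4:**
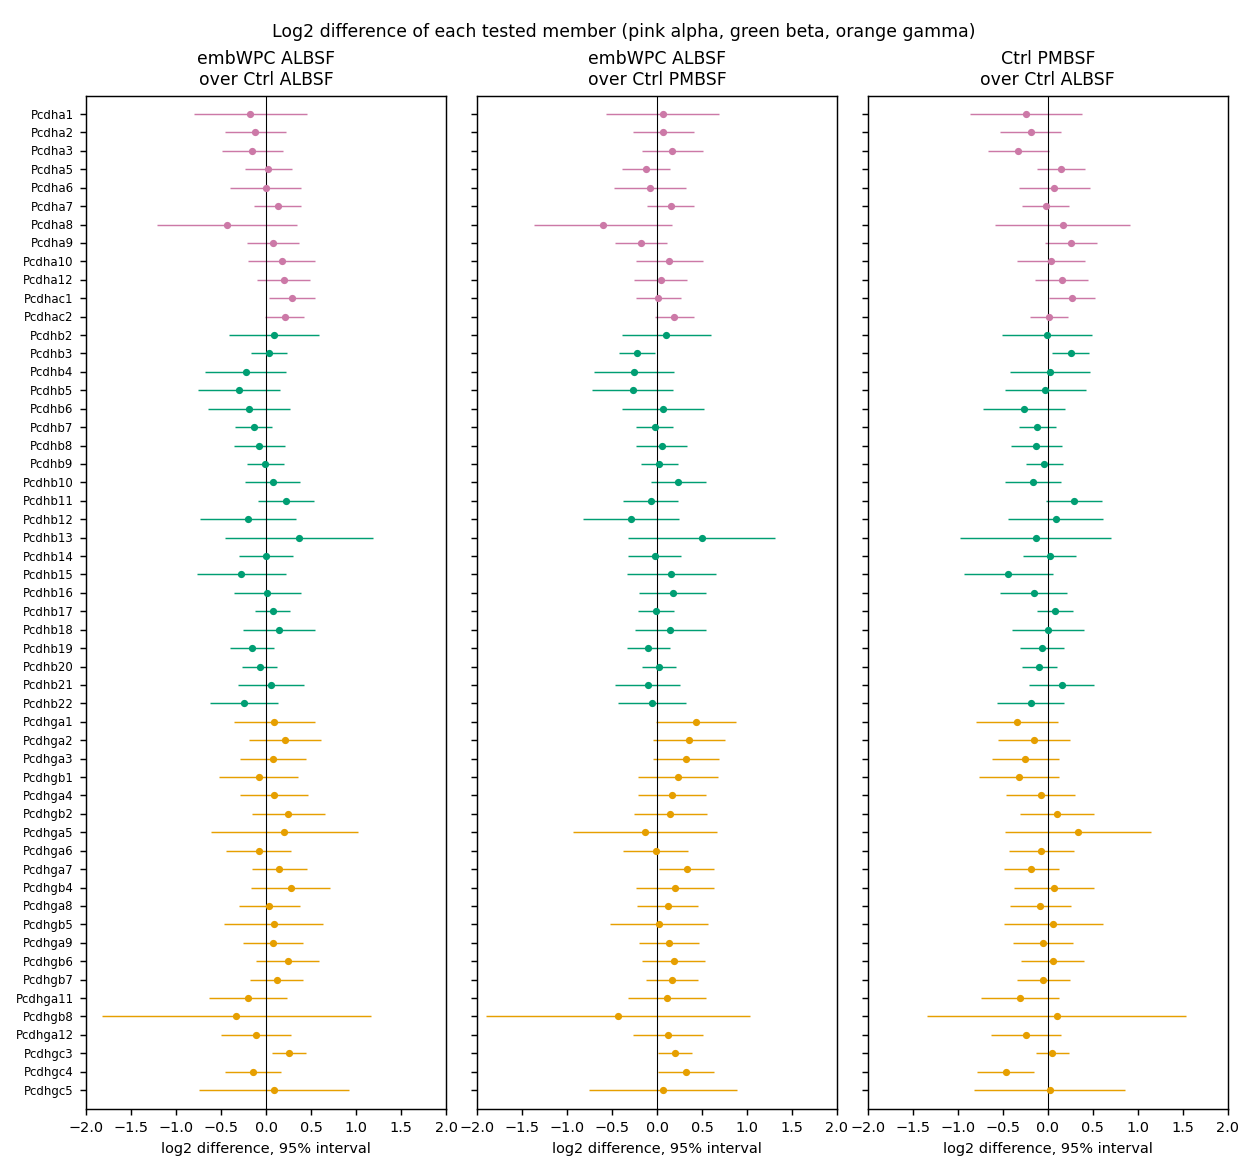
Log2 difference (horizontal, points, with bars for the 95% interval of the edgeR fit) of the 54 tested members in the 3 comparisons, in their order along the alpha, beta and gamma clusters from top to bottom. The intervals of most members include 0, that of Pcdhgc4 in the control comparison lies below it, and Pcdhgb8 has the widest intervals.

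Between the upper lip territories of embWPC and control pups no member passed the test either. By edgeR 0 of 54 members were called, where 0.0629% of all genes were, and 2 members had an unadjusted p under 0.05, against 9.22% of all genes. DESeq2 and limma-voom called 0 members, where they called 1.1% and 0.429% of all genes, with 2 and 3 members at an unadjusted p under 0.05. The libraries did not overlap for Pcdhac1 and Pcdhgc3, both higher in embWPC ALBSF, against 5.74% of all genes. The median member log2 difference of embWPC ALBSF over Ctrl ALBSF was 0.04, beside -0.01 for all genes, and 31 of 54 members lay above 0, beside 47.5% of all genes. This comparison and the one between control territories share the Ctrl ALBSF libraries.

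The C-types held the smallest p here. Pcdhgc3 had 23.4, 23.9, 22.5 and 23.4 CPM in embWPC ALBSF against 21.6, 19.4, 19.8 and 17.6 CPM in Ctrl ALBSF. All embWPC libraries lay above all control libraries, and the log2 difference was 0.25 ± 0.09 (SE, n = 4 per group), with an adjusted p of 0.378 by edgeR. Its exons overlap those of the antisense RNA BC037039, which had 103 to 179 counts, so reads of the pair may not be separable.

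Pcdhac1 had 11.6, 12.05, 11.7 and 11.6 CPM in embWPC ALBSF against 10.1, 9.78, 9.82 and 8.76 CPM in Ctrl ALBSF. The groups did not overlap, and the log2 difference was 0.29 ± 0.12 with an adjusted p of 0.491 by edgeR. Pcdhac2 averaged 73.3 ± 5.69 CPM in embWPC ALBSF and 63.6 ± 4.53 CPM in Ctrl ALBSF (SD, n = 4 each), with a log2 difference of 0.21 ± 0.10 (SE) and an adjusted p of 0.563 by edgeR. The 2 alpha C-types together summed to 79.7 to 93.5 CPM in embWPC ALBSF and 67.6 to 79.4 CPM in Ctrl ALBSF, without overlap, while the alternate alpha isoforms summed to 59.95 to 71.0 CPM in embWPC ALBSF and 59.0 to 67.7 CPM in Ctrl ALBSF. The gamma C-types together summed to 37.3 to 47.5 CPM in embWPC ALBSF and 31.3 to 36.0 CPM in Ctrl PMBSF, also without overlap, and to 34.1 to 42.8 CPM in Ctrl ALBSF, which overlapped with embWPC ALBSF. The other comparisons of the sums of alternate alpha, alpha C-type, gamma A, gamma B and gamma C-type isoforms overlapped. These sums were not tested. With the meningeal level as a covariate, the log2 difference of embWPC ALBSF over Ctrl ALBSF was 0.42 for Pcdhac1, with an adjusted p of 0.107, and 0.33 for Pcdhac2, with 0.140 by edgeR. That fit used all 12 libraries. The highest meningeal sum and the highest Pcdhac1 were both in Ctrl PMBSF 2, which is in neither group compared here.

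Pcdhgc4 was spread widely over the embWPC libraries. These had 13.5, 23.3, 13.9 and 16.6 CPM, against 20.4, 19.0, 19.2 and 15.8 CPM in Ctrl ALBSF. Library 2 was above all control libraries, libraries 1 and 3 were below them, and the log2 difference was -0.15 ± 0.15 with an adjusted p of 0.787 by edgeR. Without embWPC ALBSF 2 it was -0.34. Pcdhb11, Pcdhb7 and Pcdhgb6 had log2 differences of 0.22, -0.14 and 0.24 in overlapping groups, and Pcdhgc5 had 0.08 with a 95% interval from -0.75 to 0.92. All 10 tested markers of GABAergic prethalamic neurons had log2 differences below 0 in this comparison, with sums of 9.76 to 36.3 CPM in embWPC ALBSF and 6.18 to 60.5 CPM in Ctrl ALBSF. All 6 tested erythroid markers did so too, with sums of 355 to 849.6 CPM in embWPC ALBSF and 847 to 1332 CPM in Ctrl ALBSF, and so did all 9 microglia markers, with sums of 47.9 to 59.3 CPM in embWPC ALBSF and 54.1 to 88.6 CPM in Ctrl ALBSF. All 5 tested markers of choroid plexus and ependyma were below 0 as well, with sums of 10.8 to 16.3 CPM in embWPC ALBSF and 12.3 to 111 CPM in Ctrl ALBSF. Of the astrocyte and radial glia markers 1 of 10 was above 0, with sums of 5385 to 10376 CPM in embWPC ALBSF and 7818 to 11543 CPM in Ctrl ALBSF. Of the meningeal markers 2 of 15 were above 0, with sums of 44.0 to 50.1 CPM in embWPC ALBSF and 51.4 to 61.5 CPM in Ctrl ALBSF. No marker of these lists was at 0 in all libraries of a group, and apart from the meningeal covariate the part of these lists in the protocadherin values was not tested.

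Set against the whisker pad territory of control pups, the embWPC upper lip again had 0 of 54 members called by edgeR, where 0.00571% of all genes were. Here 4 members had an unadjusted p under 0.05, against 9.47% of all genes. DESeq2 and limma-voom called 0 members, where they called 0.467% and 0.00571% of all genes, with 4 and 2 members at an unadjusted p under 0.05. The libraries did not overlap for 3 members, against 4.73% of all genes. The median member log2 difference of embWPC ALBSF over Ctrl PMBSF was 0.07, beside -0.02 for all genes. Of 21 gamma members 18 lay above 0, beside 46.6% of all genes, and 9 of 11 gamma A isoforms did. These members share the same libraries, so a few libraries can set many of the signs. The gamma total was 119.7 and 106 CPM in embWPC ALBSF 2 and 4, against 92.8 and 93.9 CPM in embWPC ALBSF 1 and 3. Territory and treatment cannot be told apart in this comparison, and it shares libraries with both others.

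Pcdhgc3 had 23.4, 23.9, 22.5 and 23.4 CPM in embWPC ALBSF against 17.5, 21.6, 20.9 and 21.3 CPM in Ctrl PMBSF, with a log2 difference of 0.20 ± 0.09 and an adjusted p of 0.511 by edgeR. All embWPC libraries were again the higher ones. Pcdhga7 had 5.47, 6.69, 5.20 and 5.55 CPM in embWPC ALBSF against 4.73, 5.03, 4.23 and 4.24 CPM in Ctrl PMBSF, with a log2 difference of 0.33 ± 0.14 and an adjusted p of 0.502. Pcdhb3 was the lower one, with 7.48, 7.82, 6.95 and 7.89 CPM in embWPC ALBSF against 9.35, 8.93, 8.17 and 8.70 CPM in Ctrl PMBSF, and had a log2 difference of -0.22 ± 0.09 and an adjusted p of 0.497. For Pcdhgc4 the log2 difference was 0.32 ± 0.15 with an adjusted p of 0.522 in overlapping groups, and without embWPC ALBSF 2 it was 0.13. Pcdha8, Pcdhb10 and Pcdhac2 had -0.60, 0.24 and 0.19, each in overlapping groups. With the meningeal level as a covariate, whose markers summed highest in Ctrl PMBSF 2, Pcdhac2 had 0.52 with an adjusted p of 0.117 by edgeR. Of the meningeal fibroblast markers 1 of 15 had a log2 difference above 0 in this comparison, with sums of 44.0 to 50.1 CPM in embWPC ALBSF and 41.8 to 169 CPM in Ctrl PMBSF. Of the oligodendrocyte markers 7 of 8 were above 0, with sums of 328 to 484 CPM in embWPC ALBSF and 349 to 379 CPM in Ctrl PMBSF, and none of the 10 tested prethalamic GABAergic markers and of the 5 choroid plexus markers was. With the meningeal level as a covariate 0 members were called, and the part of the other lists was not tested.

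**Figure D5:**
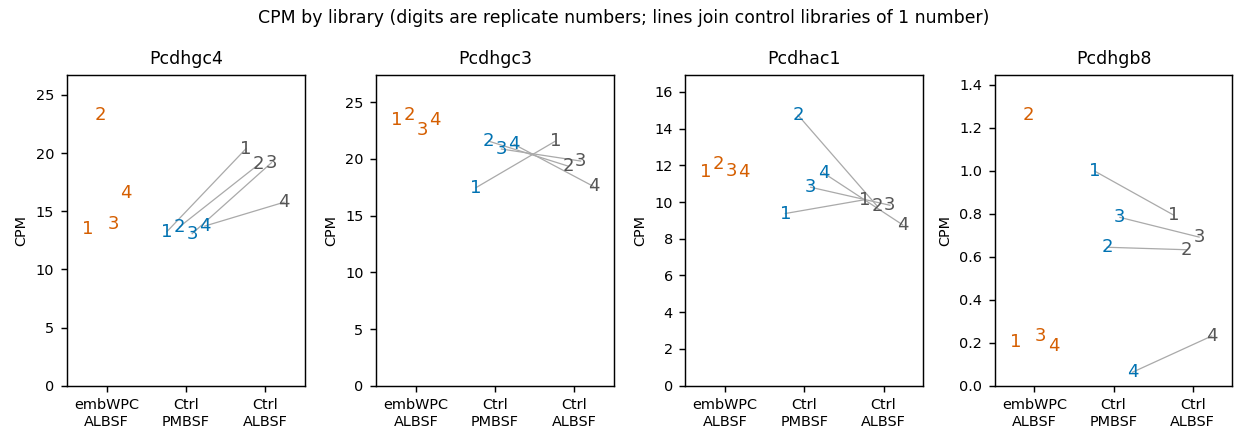
CPM (vertical, from 0) of Pcdhgc4, Pcdhgc3, Pcdhac1 and Pcdhgb8 by group. Digits are replicate numbers and stand at their values, and grey lines join the control libraries that share a number. For Pcdhgc4 the control groups do not overlap, so all 4 lines run upward from Ctrl PMBSF to Ctrl ALBSF. For Pcdhgb8 number 4 is lowest in both control groups.

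The intervals show what size of difference these libraries could hide. The 95% interval stayed within 2-fold in either direction for 50 of 54 members in embWPC ALBSF over Ctrl ALBSF, for 51 in embWPC ALBSF over Ctrl PMBSF and for 52 in Ctrl PMBSF over Ctrl ALBSF. Of all genes tested 80.5% did so in embWPC ALBSF over Ctrl ALBSF, 81.7% in embWPC ALBSF over Ctrl PMBSF and 80.4% in Ctrl PMBSF over Ctrl ALBSF. The 5 members that did not pass the count filter have no such interval.

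The spread of the members between libraries was set beside that of other genes. Their median coefficient of variation over the 12 libraries was 17.1%, beside 15.5% for the 13442 genes in the same range of CPM. Those genes were not matched to the members level by level. The biological coefficient of variation was also divided by the fitted trend at each gene's level. That ratio had a median of 0.821 for the members and 0.849 for all genes tested. It was above 1 for 9 of 54 members, beside 4943 of 17501 genes. By the coefficient of variation over the 12 libraries, Pcdhb20 varied least, with 7.30%. Pcdhgb8, singled out after its values were seen, varied most among the tested members, with 67.1%. It had 6, 39, 7 and 7 counts in embWPC ALBSF, 37, 21, 28 and 2 counts in Ctrl PMBSF, and 24, 18, 20 and 7 counts in Ctrl ALBSF. Library 2 was the high one in embWPC ALBSF and library 4 the low one in both control groups. Its biological coefficient of variation was 64.4%, against 32.3% for the fitted trend at its level.

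Genes that act with the clustered protocadherins were measured as 3 further lists, and edgeR called none of their tested genes in any comparison. In Ctrl PMBSF over Ctrl ALBSF, DESeq2 called 2 of the 30 partners and signalling genes, Ptk2b among them, beside 3.05% of all genes. From the same list limma-voom called 1, beside 2.53% of all genes. Both tools called 0 genes of the other lists there, and 0 genes of the 3 lists in the other comparisons. The counts below at an unadjusted p under 0.05 stand beside 9.22% of all genes in embWPC ALBSF over Ctrl ALBSF, 9.47% in embWPC ALBSF over Ctrl PMBSF and 11.8% in Ctrl PMBSF over Ctrl ALBSF. Of 23 tested regulators of promoter choice, such as CTCF, cohesin subunits and DNA methyltransferases, 0 had an unadjusted p under 0.05 in embWPC ALBSF over Ctrl ALBSF (median log2 difference 0.01), 2 in embWPC ALBSF over Ctrl PMBSF (0.07) and 1 in Ctrl PMBSF over Ctrl ALBSF (-0.01). Dnmt3a, a de novo DNA methyltransferase, averaged 45.9 ± 5.07 CPM in Ctrl PMBSF and 53.0 ± 2.69 CPM in Ctrl ALBSF, with a log2 difference of -0.21 and an adjusted p of 0.320 by edgeR. Wiz, a zinc finger protein found at CTCF and cohesin sites, averaged 39.8 ± 1.79 CPM in embWPC ALBSF and 32.7 ± 5.10 CPM in Ctrl PMBSF, with 0.29 and an adjusted p of 0.438. Wapl, which releases cohesin from DNA, and Nipbl, which loads it, had log2 differences of 0.12 and 0.13 in embWPC ALBSF over Ctrl ALBSF.

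Of 30 partners and signalling genes 4 had an unadjusted p under 0.05 in embWPC ALBSF over Ctrl ALBSF (median log2 difference 0.04), 5 in embWPC ALBSF over Ctrl PMBSF (0.09) and 5 in Ctrl PMBSF over Ctrl ALBSF (-0.07). Ptk2b (Pyk2), a kinase that the alpha and gamma cytoplasmic tails bind and inhibit, averaged 9.61 ± 1.93 CPM in Ctrl PMBSF and 15.3 ± 3.76 CPM in Ctrl ALBSF, with a log2 difference of -0.67 ± 0.20 and an adjusted p of 0.138 by edgeR. Wasf1, a subunit of the actin-regulating WAVE complex that alpha tails recruit, averaged 292 ± 20.9 CPM in embWPC ALBSF and 229 ± 23.3 CPM in Ctrl PMBSF, with 0.35 ± 0.10 and an adjusted p of 0.326. Axin1, the partner of Pcdhgc3, averaged 29.9 ± 2.15 CPM in embWPC ALBSF and 24.7 ± 3.10 CPM in Ctrl ALBSF, with 0.27 ± 0.09 and an adjusted p of 0.350.

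Of 12 tested genes beside or between the clusters 2 had an unadjusted p under 0.05 in embWPC ALBSF over Ctrl ALBSF (median log2 difference -0.13), 1 in embWPC ALBSF over Ctrl PMBSF (-0.03) and 1 in Ctrl PMBSF over Ctrl ALBSF (0.00). Pcdh1, a protocadherin outside the arrays, averaged 6.96 ± 0.996 CPM in embWPC ALBSF, 6.81 ± 1.44 CPM in Ctrl PMBSF and 9.11 ± 0.662 CPM in Ctrl ALBSF. Its log2 difference from Ctrl ALBSF was -0.39 in embWPC ALBSF and -0.42 in Ctrl PMBSF, with adjusted p of 0.459 and 0.243 by edgeR. Diaph1, an actin-nucleating formin, had -0.27 in embWPC ALBSF over Ctrl ALBSF with an adjusted p of 0.514.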

How the data were processed

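Raw counts per Ensembl gene and library were deposited by the authors. Per the submitters' processing notes they used FastQC 0.11.9 on the reads (150 nucleotides), STAR 2.7.9a as aligner, SAMtools 1.15, and featureCounts of Subread 2.0.1 for counting. The builds listed there are GRCm39 and mm10. Settings for strand, read pairs and reads with several alignments are not given in the sources used here. Their DESeq2 1.32 results were not used. Symbols, positions and exon overlaps came from GENCODE M39 on GRCm39, a later release than the authors' annotation, and 54749 of 55359 genes were found in it. The other 610 genes, with 0.0162% of the counts, entered the fit under their identifier.

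The tools here were edgeR 4.0.16, DESeq2 1.42.0 and limma 3.58.1, in R 4.3.3. The 12 libraries were fitted together by edgeR's quasi-likelihood model with group as the only term, after filterByExpr (17501 genes) and TMM scaling, and the test was checked on simulated counts. Benjamini-Hochberg adjustment ran over all genes tested, and called means an adjusted p below 0.05. CPM of 4 libraries are given as mean ± SD, log2 differences with the SE of the fit. Totals and shares were described without a test. In a chi-square test of their counts no 2 libraries differed by less than 12.6 per degree of freedom, so none was a copy of another.

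The replicate numbers come from the labels, which do not say what they mark. The deviations of same-numbered control libraries from their group means correlated at 0.198 to 0.396 across genes, and those of other control pairs at -0.232 to 0.0567, so the numbers pair the control libraries. Same-numbered libraries correlated at -0.147 to 0.0376 for embWPC ALBSF with Ctrl ALBSF and at -0.104 to 0.0510 for embWPC ALBSF with Ctrl PMBSF, which are therefore not paired.

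The text names the called members, the 4 with the highest mean CPM of each cluster, the C-types, the 2 with the smallest p of each cluster in each comparison, and for each further list its called genes or the 2 with the smallest p. Other members are named as the lowest, the least or most variable, those without overlap, or those that failed the filter, chosen after their values were seen. The members and lists were chosen with earlier results of these data known. A gene that this rule would name is not reported here. No sequence is shown. Alternatives were RLE scaling, no count filter, DESeq2, limma-voom with quality weights, a meningeal covariate, only the groups compared, the replicate block and each library left out, and, added after seeing the data, the blocked fit without each number.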

Additional observations from a re-analysis of the deposited data

Results flagged for a closer look

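In 3 of 87 groups of 4 libraries examined for the named members and totals, 1 library lay so far from the other 3 that the gap passed Dixon's 95% critical value, where chance gives about 1 in 20. Pcdha12 had 15.3 CPM in embWPC ALBSF 2, against 11.4 to 12.01 CPM in the other 3 libraries of that group. Pcdhgc3 had 17.5 CPM in Ctrl PMBSF 1, below the 20.9 to 21.6 CPM of the other 3. Pcdhga1 had 2.02 CPM in Ctrl ALBSF 1, above the 1.42 to 1.51 CPM of the other 3. Over all 54 tested members 10 of 162 groups passed that value.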

How the results depend on the processing

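The count of members called stayed at 0 under each alternative in both embWPC comparisons. In Ctrl PMBSF over Ctrl ALBSF it was 0 in the fit of 12 libraries. It was 1, Pcdhgc4, with only the 2 groups compared and with the replicate block. Leaving out each library gave 0. The blocked fit without number 3 of both groups gave 0 and without any other number 1. Without number 1, 2, 3 and 4 the blocked fits called 5.71, 3.15, 2.22 and 1.81% of all genes. The replicate block changed no other member's call. In the 8 control libraries it called 857 of 17000 genes, beside 230 without the block, and the fit of 12 libraries called 284 of 17501. DESeq2 called 523, 181 and 77 genes in Ctrl PMBSF over Ctrl ALBSF, embWPC ALBSF over Ctrl ALBSF and embWPC ALBSF over Ctrl PMBSF, where edgeR called 284, 11 and 1. On unscaled library totals, the log2 difference of the beta total was 0.084 in Ctrl PMBSF over Ctrl ALBSF (-0.01 as reported) and -0.089 in embWPC ALBSF over Ctrl PMBSF (-0.02), and with each member weighing equally that of the alpha total in embWPC ALBSF over Ctrl ALBSF was 0.026 (0.14). Shares per unshared kilobase follow in the order embWPC ALBSF, Ctrl PMBSF and Ctrl ALBSF. For Pcdhac2 in alpha they were 41.0%, 37.8% and 38.8%. For Pcdhb17 in beta they were 11.4%, 11.3% and 10.6% (13.4%, 13.3% and 12.4% of counts). For Pcdhgc3 in gamma they were 30.0%, 29.9% and 26.8% (22.8%, 22.8% and 20.1% of counts). The unshared bases leave out those under antisense genes, so these shares depend on the strand setting, which is not given. Signs turned for C-types near 0. With the meningeal covariate Pcdhac2 had -0.20 and Pcdhgc3 -0.036 in Ctrl PMBSF over Ctrl ALBSF. With the replicate block Pcdhgc5 had -0.0020 in Ctrl PMBSF over Ctrl ALBSF, -0.013 in embWPC ALBSF over Ctrl ALBSF and -0.040 in embWPC ALBSF over Ctrl PMBSF. Under limma-voom Pcdhac1 had -0.031 and Pcdhgc5 -0.090 in embWPC ALBSF over Ctrl PMBSF. With each library left out, Ctrl PMBSF over Ctrl ALBSF ran from -0.095 to 0.083 for Pcdhac2 and from -0.22 to 0.14 for Pcdhgc5. In the embWPC comparisons Pcdhgc5 ran from -0.30 to 0.29 against Ctrl ALBSF and from -0.32 to 0.31 against Ctrl PMBSF, and Pcdhac1 from -0.063 to 0.15 against Ctrl PMBSF. The cause of these turns was not tested. Counts limit Pcdhgc5, Pcdha8, Pcdhb13 and Pcdhgb8, which had at most 50 reads in a library, and 5 members could not be tested.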
